A study of Mus musculus with 136 samples.

Results

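Serum proteins of the early mouse conceptus were followed through 10 genes, chosen by name and found by their symbols among the 47643 gene rows of a table of unique molecular identifier (UMI) counts. All 10 were in the table. They encode alpha-fetoprotein (Afp), albumin (Alb), transthyretin (Ttr), retinol-binding protein 4 (Rbp4), transferrin (Trf), the 3 chains of fibrinogen (Fga, Fgb and Fgg), prothrombin (F2), and Ambp, the common precursor of alpha-1-microglobulin and the protease inhibitor bikunin.

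Before there is a liver, serum proteins of the mouse conceptus are secreted by the visceral endoderm, the outer epithelium of the yolk sac. The same cells take up maternal proteins through the endocytic receptors cubilin (Cubn) and megalin (Lrp2), and the proteins they secrete carry retinol, thyroid hormone and iron towards the embryo. Alpha-fetoprotein is the best known of these products, and albumin succeeds it later as the main serum protein.

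The libraries compared, 66 of embryos and 66 of yolk sacs, came from 66 concepti of the non-obese diabetic (NOD) strain at E8.5, each divided into the embryo and its yolk sac. Dams on a chow diet were either normoglycemic, with blood glucose of 105 to 164 mg/dl at euthanasia, or had become diabetic spontaneously, with 423 to 595 mg/dl and 1 litter above the 600 mg/dl limit of the meter. Normal pregnancies gave 17 concepti with 5 or 6 somite pairs, from 10 litters, and 16 with 7 to 9 somite pairs, from 7 litters. Diabetic pregnancies gave 17 concepti of the earlier stage from 9 litters and 16 of the later stage from 6 litters, of which litter D24M15 alone gave 7. In all there were 10 normal and 12 diabetic litters, so some litters gave concepti of both stages. Littermates share a dam, so p-values taken over concepti treat related animals as independent. Litter means were tested as well, for the diabetes comparisons only. The study names the sequenced tissue visceral yolk sac and the labels yolk sac, and the 2-digit number in the sample titles (23, 24 or 28) has no stated meaning.

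Library totals ran from 1017901 to 5658850 UMI counts, with a median of 2302819. Levels are given as normalized counts, UMI counts divided by a size factor computed over all libraries compared. The kit reads 1 tag at the 3′ end of each transcript, so levels of different genes were compared without a correction for length. The labelled tissues were checked with marker genes. The summed level of 10 visceral endoderm markers that are not among the 10 serum protein genes was 6623 to 20441 in yolk sacs and 256 to 1523 in embryos. The sum of 7 markers of the embryo proper was 648 to 1258 in embryos and 3.61 to 69.1 in yolk sacs. In bulk tissue, fewer cells of a type and less RNA per cell cannot be told apart.

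Several of the genes are neighbours, and their upstream sequences are shown because neighbours differed widely in level. On chromosome 5 of mm10, Alb (5:90460897-90476602), Afp (5:90490737-90508907) and their relative Afm lie in a row on the plus strand, with 14.13 kb between Alb and Afp and no protein-coding gene between them. On chromosome 3, Fgg (3:83007724-83015049), Fga (3:83026076-83033627) and Fgb (3:83040141-83049863, on the minus strand) lie within 42.14 kb. Below are up to 250 bases before the RefSeq start of each gene (GRCm38.p6, the assembly of mm10), ended before the first annotated exon base, 5′ to 3′ on the strand of the gene, with capitals for the motif matches described next. Afp is 5:90490464-90490713, Alb is 5:90460620-90460869, Fgg is 3:83007474-83007723, Fga is 3:83025903-83026075 and Fgb is 3:83049864-83050113.
Afp: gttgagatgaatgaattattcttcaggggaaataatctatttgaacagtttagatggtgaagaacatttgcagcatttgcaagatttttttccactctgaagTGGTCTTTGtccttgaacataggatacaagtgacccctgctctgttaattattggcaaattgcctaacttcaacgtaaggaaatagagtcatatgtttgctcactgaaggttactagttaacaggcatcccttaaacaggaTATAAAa
Alb: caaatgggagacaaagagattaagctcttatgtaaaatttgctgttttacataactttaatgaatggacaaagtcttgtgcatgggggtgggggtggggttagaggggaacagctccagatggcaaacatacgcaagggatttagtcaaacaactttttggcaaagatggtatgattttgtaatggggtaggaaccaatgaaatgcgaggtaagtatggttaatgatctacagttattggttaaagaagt
Fgg: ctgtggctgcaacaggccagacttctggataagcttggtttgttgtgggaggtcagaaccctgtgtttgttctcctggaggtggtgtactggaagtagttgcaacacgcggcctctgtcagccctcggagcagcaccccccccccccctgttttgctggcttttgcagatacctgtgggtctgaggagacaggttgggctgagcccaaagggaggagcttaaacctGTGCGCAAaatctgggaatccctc
Fga: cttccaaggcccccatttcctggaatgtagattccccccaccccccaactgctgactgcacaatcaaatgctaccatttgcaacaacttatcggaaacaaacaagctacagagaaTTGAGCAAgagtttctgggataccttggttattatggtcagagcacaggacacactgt
Fgb: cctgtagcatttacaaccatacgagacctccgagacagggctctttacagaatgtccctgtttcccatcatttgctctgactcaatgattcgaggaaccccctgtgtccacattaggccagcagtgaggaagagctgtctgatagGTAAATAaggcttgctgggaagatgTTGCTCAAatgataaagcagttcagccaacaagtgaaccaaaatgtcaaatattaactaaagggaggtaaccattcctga

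Motifs of liver-type transcription factors were searched on both strands in the 250 bases before the RefSeq start of 8 of the 10 genes (9 start entries). The C/EBP motif TTGCGCAA, with up to 1 mismatch, was found at all 3 fibrinogen genes and at no other of the 8, and 5.08% of all 32851 promoters of that length hold it. This motif reads the same on both strands. The HNF4 motif CAAAGTCCA with up to 1 mismatch was found at Afp (7.05%). Of the FOXA motifs, TGTTTAC was found at Rbp4 (3.17%) and TATTTAC at Fgb (2.73%). The TATA box letters TATAAA were found at Afp and Rbp4 (12.4%), and the GATA motif AGATAA at none (9.99%). These letters describe the sequence and were not tied to binding.

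Afp, Ttr and Rbp4 were among the most abundant transcripts of the yolk sac, while Alb, next to Afp on the chromosome, was almost absent. Ranked by mean level over the 66 yolk sacs, Ttr was 17th, Afp 19th and Rbp4 20th of 28355 genes with a count. Trf ranked 448th, Fgb 508th, Fgg 2426th, Fga 3041st, F2 5218th and Ambp 6569th. Together the 10 genes held 0.700% ± 0.170 of a library's counts in normal yolk sacs of the earlier stage and 1.07% ± 0.234 in those of the later stage (SD, n = 17 and 16). In diabetic yolk sacs they held 0.639% ± 0.176 and 1.08% ± 0.260 (SD, n = 17 and 16). Afp, Ttr and Rbp4 supplied most of this, with group means of 89.7 to 90.9% of the counts of the 10 genes.

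**Figure D1:**
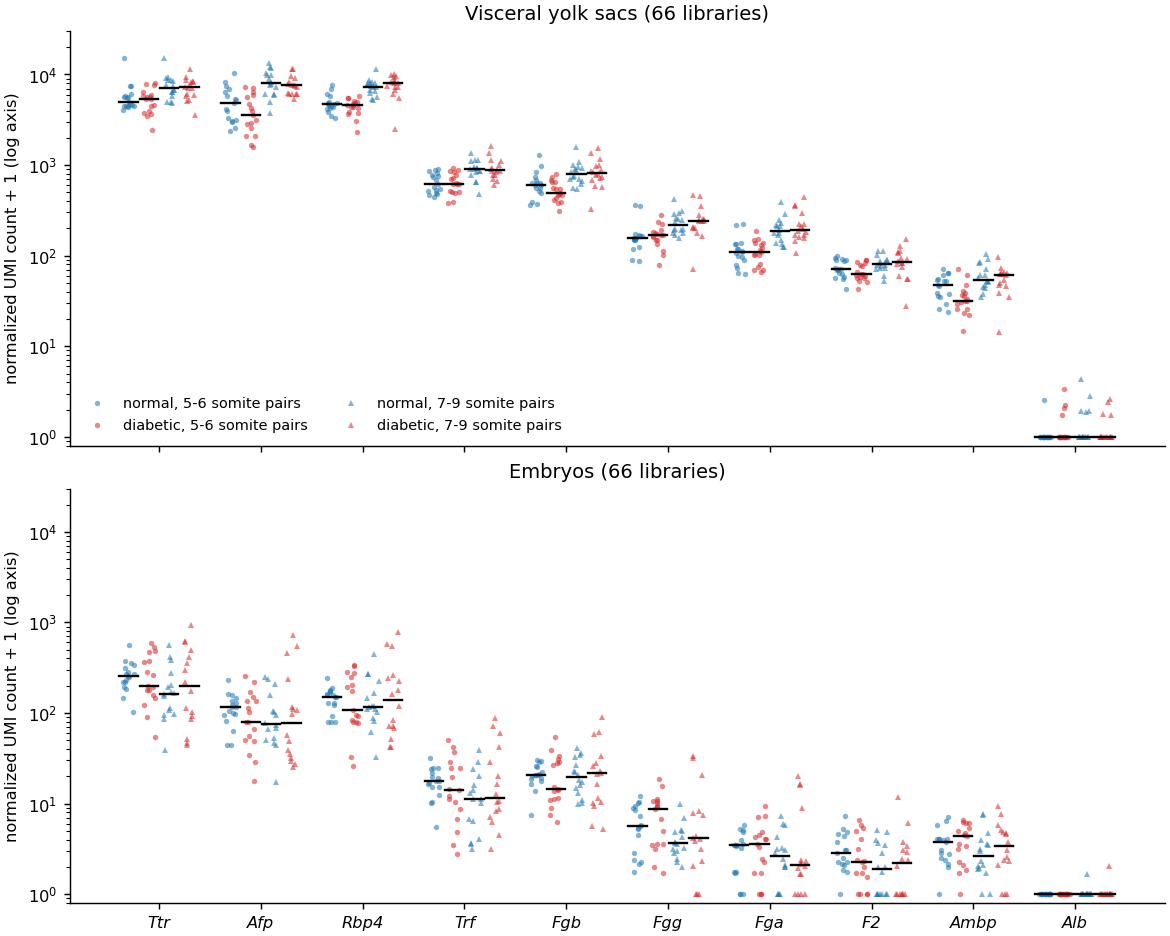
Normalized UMI count plus 1 (log axis) of the 10 serum protein genes in each of 66 yolk sacs (top) and 66 embryos (bottom), by stage and maternal condition, with a bar at each group median. Yolk sac values of Afp, Ttr and Rbp4 lie between 1570.02 and 15289, and Alb sits at 0 in most libraries of either tissue.

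Afp, which binds fatty acids and estrogens, had normalized counts of 2359, 4850 and 10429.5 (lowest, median, highest) in normal yolk sacs with 5 or 6 somite pairs and of 1570.02, 3570.3 and 7227 in diabetic ones. At 7 to 9 somite pairs it had 3747, 8083 and 13536 in normal and 5338, 7581 and 11635 in diabetic yolk sacs. The highest medians were at the later stage, and the ranges of all 4 groups overlapped. Alb, by contrast, had 19 UMI counts in 14 of the 66 yolk sacs and at most 3 in a library, against 405927 for Afp in the same libraries. In embryos Alb had 2 UMI counts over 66 libraries, and the earlier normal embryos had 0 in 47533875 counts, which allows up to 0.0631 CPM (3 counts in all, counting error only). The other relatives of Afp in the genome, Afm and the vitamin D carrier Gc, were also low, and neither was abundant enough to be tested for stage, for maternal diabetes or between tissues.

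Ttr, the carrier of thyroid hormone that also binds Rbp4, had 4089.9, 4998 and 15289 (lowest, median, highest) in earlier normal yolk sacs and 2442, 5359.7 and 8101 in earlier diabetic ones. It had 4846, 7098 and 15255 in later normal and 3538, 7255 and 11539.6 in later diabetic yolk sacs. Both highest normal values came from single yolk sacs, N28M06A and N28M07H, far above the group medians. Rbp4, the carrier of retinol in blood, had 3307, 4746 and 7681 in earlier normal and 2290.3, 4587 and 5814 in earlier diabetic yolk sacs. At the later stage Rbp4 had 5195, 7352 and 11566 in normal and 2515, 7971 and 10222 in diabetic yolk sacs. Its spread was narrow, with a coefficient of variation of 20.3 to 24.8% in the 4 groups, against 24.5 to 47.4% for Afp.

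Trf, the iron carrier of serum, had 448, 619 and 898 in earlier normal, 378, 624 and 935 in earlier diabetic, 482, 905 and 1341 in later normal, and 602, 876 and 1629 in later diabetic yolk sacs. Of the clotting proteins, Fgb had 361, 607 and 1294 in earlier normal, 308, 492 and 797 in earlier diabetic, 539.5, 797 and 1599.96 in later normal, and 328, 822 and 1524 in later diabetic yolk sacs. The chains of fibrinogen assemble in equal numbers, but their transcripts were not equal. Fgg had group medians of 154, 169.6, 215 and 241 in the same order, and Fga of 109, 109, 185 and 190.5. F2, the precursor of thrombin, had medians of 70.3, 61.3, 79.9 and 84.8, and Ambp of 46.1, 30.5, 53.4 and 60.6.

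The order of the genes was compared between neighbours within the same yolk sac, in 36 pairs over the 4 groups, with an exact sign-flip permutation test (two-sided, Benjamini-Hochberg over the 36). Neighbours were set by the mean levels of the same yolk sacs, so pairs and direction came from the values tested. The p-values are thus a description, and littermates were treated as independent. In 27 of the 36 pairs the neighbours differed, among them wide gaps such as Rbp4 over Trf in earlier normal yolk sacs (means 4887 and 651). Trf and Fgb did not differ in 3 of the 4 groups (adjusted exact p = 0.673 in earlier normal, 0.285 in later normal and 0.311 in later diabetic yolk sacs), and Trf was higher in 16 of 17 earlier diabetic yolk sacs (adjusted exact p = 8.240e-05). At the later stage no neighbours among Afp, Ttr and Rbp4 were told apart, with adjusted exact p from 0.136 to 0.904. At the earlier stage Ttr was above Afp in 10 of 17 normal yolk sacs (adjusted exact p = 0.0345). It was above Rbp4 in 12 of 17 diabetic ones (adjusted exact p = 0.0139). Afp and Rbp4 did not pass in normal (adjusted exact p = 0.785) or, narrowly, in diabetic yolk sacs (0.0596, Rbp4 higher in 12 of 17). Fgg was above Fga in every group, in 17 of 17, 17 of 17, 15 of 16 and 13 of 16 yolk sacs. Ambp was above Alb in all 66.

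All genes but Alb were far lower in embryos than in yolk sacs. In embryos, Afp had medians of 114, 78.3, 74.4 and 76.8 normalized counts (earlier normal, earlier diabetic, later normal, later diabetic), Ttr of 256, 197, 162 and 197, and Rbp4 of 148, 107, 116 and 139. Trf and Fgb had medians of 10.2 to 20.6, and Fga, Fgg, F2 and Ambp had medians of 0.875 to 7.63. The groups did not overlap between tissues for any gene except Alb. By edgeR's quasi-likelihood test the log2 difference (yolk sac minus embryo) was 5.50 for Afp, 4.47 for Ttr, 5.13 for Rbp4, 5.29 for Trf and 4.99 for Fgb in normal concepti of the earlier stage, with adjusted p-values of 5.362e-23 or lower. The same 5 genes had differences of 5.24 to 6.35 in later normal, 4.34 to 5.34 in earlier diabetic and 4.65 to 5.54 in later diabetic concepti, all past the test. These 5 were abundant enough for testing in embryos alone. Fga, Fgg, F2 and Ambp entered the fit only through their yolk sac counts, with differences of 3.54 to 6.54. The genes were picked as yolk sac products, so their direction was known. Of all genes tested, 70.6, 75.2, 70.9 and 72.8% differed between the tissues (earlier normal, later normal, earlier diabetic, later diabetic), and 35.1, 35.7, 36.2 and 35.1% were higher in the yolk sac.

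The level left in embryos was a few percent of that in yolk sacs for each gene. The mean level in embryos was 1.89 to 5.84% of that in yolk sacs over the 9 genes other than Alb in earlier normal concepti (median 3.06%). It was 1.02 to 3.64% in later normal (median 1.59%), 2.46 to 8.75% in earlier diabetic (median 3.61%) and 1.85 to 5.18% in later diabetic concepti (median 2.85%). The 10 visceral endoderm markers had medians of 2.80, 1.67, 3.51 and 2.47% in the order earlier normal, later normal, earlier diabetic and later diabetic. Their lowest values were 1.52, 0.686, 1.62 and 1.69% and their highest, all of Lrp2, 19.7, 18.1, 21.2 and 13.9%. Dab2 was next highest, with 7.16, 5.67, 7.5 and 6.61%. Between single embryos the summed level of the serum protein genes ranged 22.2-fold among later diabetic embryos (121 to 2693), 11.8-fold among later normal, 9.78-fold among earlier diabetic and 3.72-fold among earlier normal ones. Over the 66 embryos, deviations of these genes from the group means ran with those of the visceral endoderm markers (Pearson r = 0.953, a description over libraries that share depth and dissection), while within yolk sacs r was 0.384. Against the yolk sac of the same conceptus the embryo deviations had r = -0.357. Whether carried-over yolk sac tissue has a part in the embryo values was not tested.

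**Figure D2:**
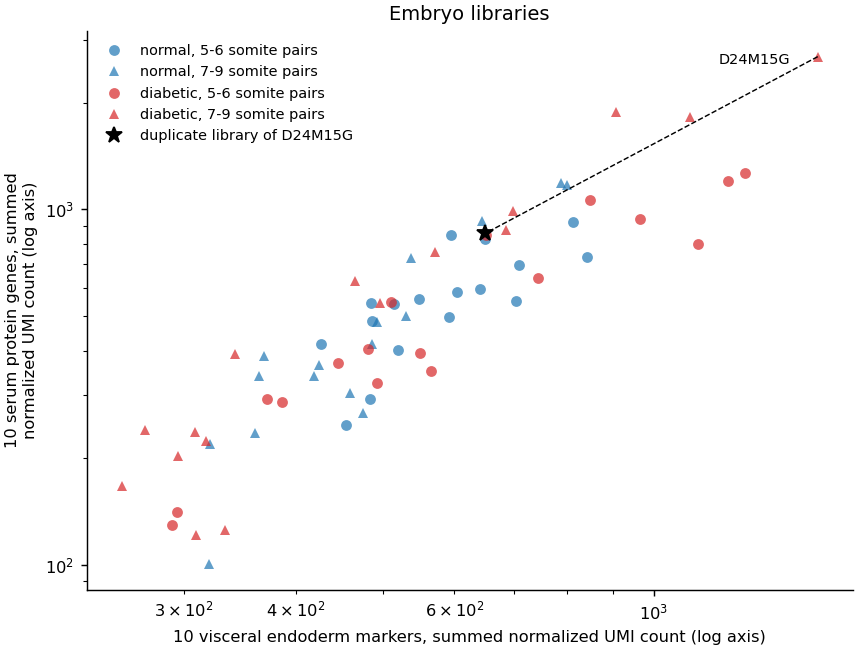
Summed normalized UMI count of the 10 serum protein genes against that of 10 visceral endoderm markers in each of 66 embryos (both axes log), by stage and condition, with the duplicate library of embryo D24M15G as a star joined to its original. The points rise together, from sums near 100 to 2693, and the duplicate lies far below its original on both axes.

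Embryo D24M15G held the highest value of 8 of the 9 genes in the later diabetic group. It was also made into a duplicate library that enters no comparison. Afp had 734 normalized counts in the original and 219 in the duplicate, Ttr 935 and 339.8, Rbp4 778 and 209, and Trf 86.9 and 32.9. In CPM (counts scaled to the library total), the 10 genes together were 3.09-fold higher in the original, the 10 visceral endoderm markers 2.31-fold and 5 primitive erythroid markers 5.57-fold, while 7 markers of the embryo proper were at 0.953-fold. Among all libraries compared, the original was nevertheless the one most like its duplicate (Pearson r = 0.985 over 8904 genes). In the other 3 duplicated libraries the 10 genes were at 0.990-fold to 1.02-fold. Without this embryo the tissue difference in later diabetic concepti was 4.88 (Ttr) to 5.91 (Afp) over the 5 genes testable in embryos, and the next highest sum among later diabetic embryos was 1884. The diabetes differences of Afp and Trf are given with and without it where they are described.

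Between the stages, yolk sac levels of several genes were higher at 7 to 9 somite pairs. In normal yolk sacs 4 of the 9 genes tested rose: Fga by 0.78 ± 0.16 (log2 difference, later minus earlier, ± SE), Afp by 0.73 ± 0.18, Rbp4 by 0.59 ± 0.11 and Trf by 0.47 ± 0.12. Their edgeR adjusted p-values were 0.00239, 0.00905, 7.573e-04 and 0.0104. None fell, and of all 10013 genes tested 7.84% changed and 4.82% were higher. Fgg had 0.48 ± 0.16 (adjusted p = 0.0506), Fgb 0.39 ± 0.14 (0.0820), Ambp 0.39 ± 0.15 (0.113), Ttr 0.38 ± 0.15 (0.121) and F2 0.17 ± 0.11 (0.347), and these 5 did not pass the test. Fgg passed it by DESeq2 (adjusted p = 0.0452), and Fgg and Fgb passed it in a limma model with litter as a random block (adjusted p = 0.0175 and 0.0367).

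In diabetic yolk sacs all 9 genes tested rose from the earlier to the later stage, among 33.7% of all 10469 genes tested that changed and 18% that were higher. The largest differences were those of Fga (1.01 ± 0.16, adjusted p = 1.034e-05) and Afp (0.96 ± 0.18, adjusted p = 8.569e-05). Rbp4 rose by 0.79 ± 0.13, Fgb by 0.70 ± 0.14, Ambp by 0.68 ± 0.17, Fgg by 0.60 ± 0.16, Trf by 0.53 ± 0.13, Ttr by 0.44 ± 0.14 and F2 by 0.41 ± 0.14. The call of F2 was lost without litter D24M15 (0.35, edgeR adjusted p = 0.126), with litter as a random block (0.35, limma adjusted p = 0.0644) and with no filter on low counts (0.40, edgeR adjusted p = 0.0502). The difference between diabetic and normal yolk sacs in this stage effect was tested as an interaction and passed for none of the 9 (log2 0.06 to 0.31, lowest adjusted p = 0.881, no unadjusted p under 0.05, and 0% of all genes). The diabetic count is therefore not shown to differ from the normal one.

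Somite by somite, the median of Afp in normal yolk sacs was 3993 at 5, 5601 at 6, 6138 at 7, 7806 at 8 and 9867 at 9 somite pairs (n = 11, 6, 7, 4 and 5). In diabetic yolk sacs it was 3138, 6732, 6190.1, 7547 and 8342 (n = 13, 4, 4, 9 and 3). The normal medians were higher at each step, and the diabetic ones were highest at 9 somite pairs with 1 step down. Rbp4 went from 4497 at 5 to 8223 at 9 somite pairs in normal and from 4587 to 8748 in diabetic yolk sacs. The lowest Afp value with 9 somite pairs was 8247 in normal and 7668 in diabetic yolk sacs, and the highest with 5 pairs was 10429.5 and 5980.3. The diabetic yolk sacs with 5 and with 9 somite pairs thus did not overlap, and the normal ones did.

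**Figure D3:**
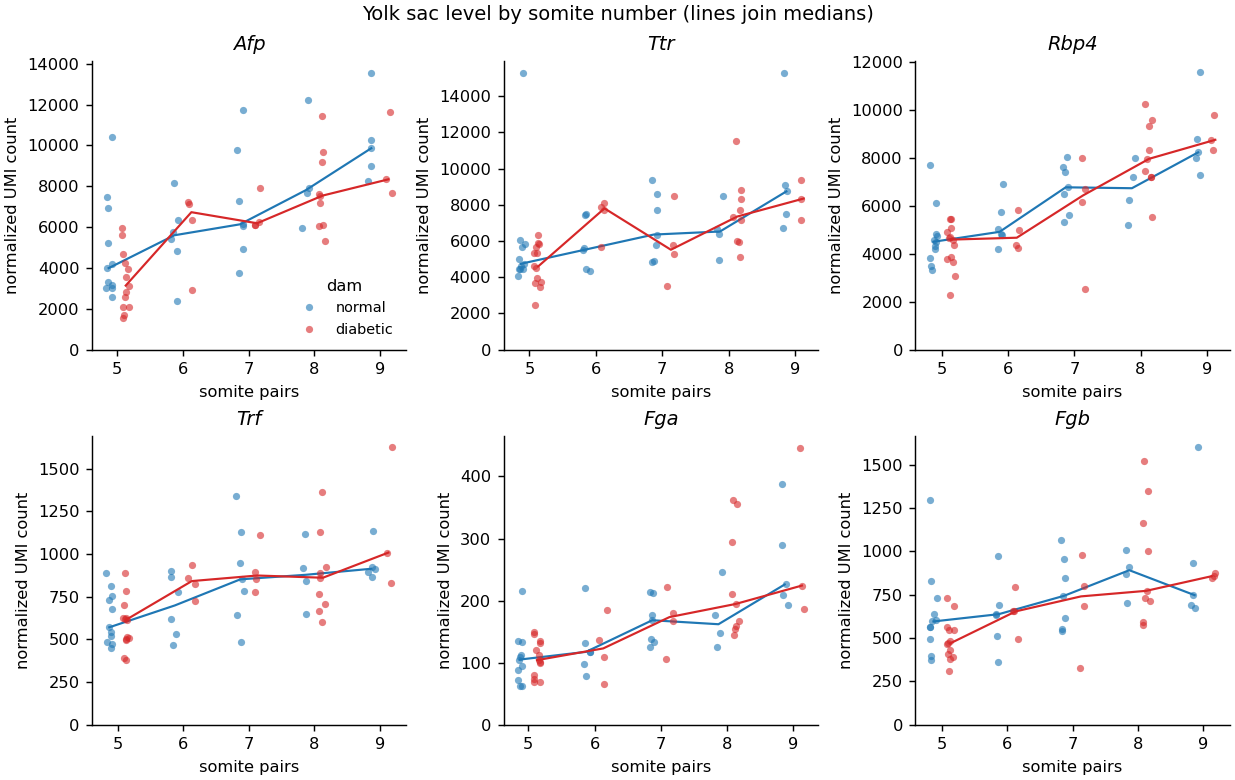
Normalized UMI count in each yolk sac by number of somite pairs, for 6 serum protein genes, with lines through the medians of normal (blue) and diabetic (red) pregnancies. Afp, Rbp4 and Fga climb across the stages in both conditions, and blue and red points overlap at every stage.

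Counts of called genes were lower within libraries that share a title number. With title number 28 only (12 and 13 normal, 13 and 8 diabetic yolk sacs), 2 of 9 genes passed in normal and 8 of 9 in diabetic yolk sacs, where 371 and 2188 of all genes passed. With title number 24 only (4 and 3 normal, 3 and 7 diabetic), none of the 9 passed by edgeR in either condition, and of all genes 0 passed in normal and 203 in diabetic yolk sacs. Within number 24 the log2 differences remained positive for all called genes, from 0.63 (Trf) to 0.98 (Afp) in normal and from 0.03 (Trf and Ttr) to 0.73 (Rbp4) in diabetic yolk sacs. Yolk sac D28M36C, the library with the lowest total, had the lowest value of 7 of the 9 genes among later diabetic yolk sacs and the highest sum of visceral endoderm markers (20441). Without it all 9 genes still rose.

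In embryos none of the 5 genes abundant enough to be tested changed between the stages by edgeR, DESeq2 or limma, and none had an unadjusted p under 0.05. The log2 differences were -0.42 (Ttr) to 0.11 (Rbp4) in normal embryos, where 15.1% of all genes changed and 6.13% were higher. They were 0.08 (Ttr) to 0.71 (Afp) in diabetic embryos, where 29.2% changed and 15.1% were higher, and again 0 of 5 passed without embryo D24M15G. The primitive erythroid markers were higher in later embryos, 3 of 3 tested in either condition. Of the 5 on the list, only 1 was abundant enough to be tested among earlier embryos alone. The others entered the stage fits through their counts in later embryos, so no call is drawn from them.

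No change of these genes with maternal diabetes passed the test in either tissue or stage. In yolk sacs of the earlier stage 0 of 9 genes passed by edgeR, DESeq2 or limma, where 0% of all 10250 genes tested did by edgeR. The log2 differences (diabetic minus normal) were near 0 for Trf and Fgg, and the lowest were those of Ambp (-0.40 ± 0.17, 95% interval -0.74 to -0.06), Afp (-0.34 ± 0.21, -0.77 to 0.08) and Fgb (-0.27 ± 0.14, -0.55 to 0.01). Ambp alone had an unadjusted p under 0.05 (p = 0.0214, adjusted p = 0.552). With title number 24 only these 3 differences were above 0, at 0.19, 0.11 and 0.03.

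In yolk sacs of the later stage 0 of 9 passed, with differences of -0.12 (Afp) to 0.18 (Fga), no unadjusted p under 0.05, and 0.0194% of all genes called. The 95% intervals of the 9 genes lay between -0.42 and 0.51, and changes within a gene's own interval are not excluded. The change of the diabetes effect between tissues also passed for none of the 9 genes, at the earlier stage (0% of all genes) or the later one (0.389%), where Fgg had an unadjusted p of 0.0348 and an adjusted p of 0.248. Fga, Fgg, F2 and Ambp entered these fits only through their yolk sac counts, so nothing is drawn from them. Fgg had 51 UMI counts over all later normal embryos and 114 over all later diabetic ones.

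**Figure D4:**
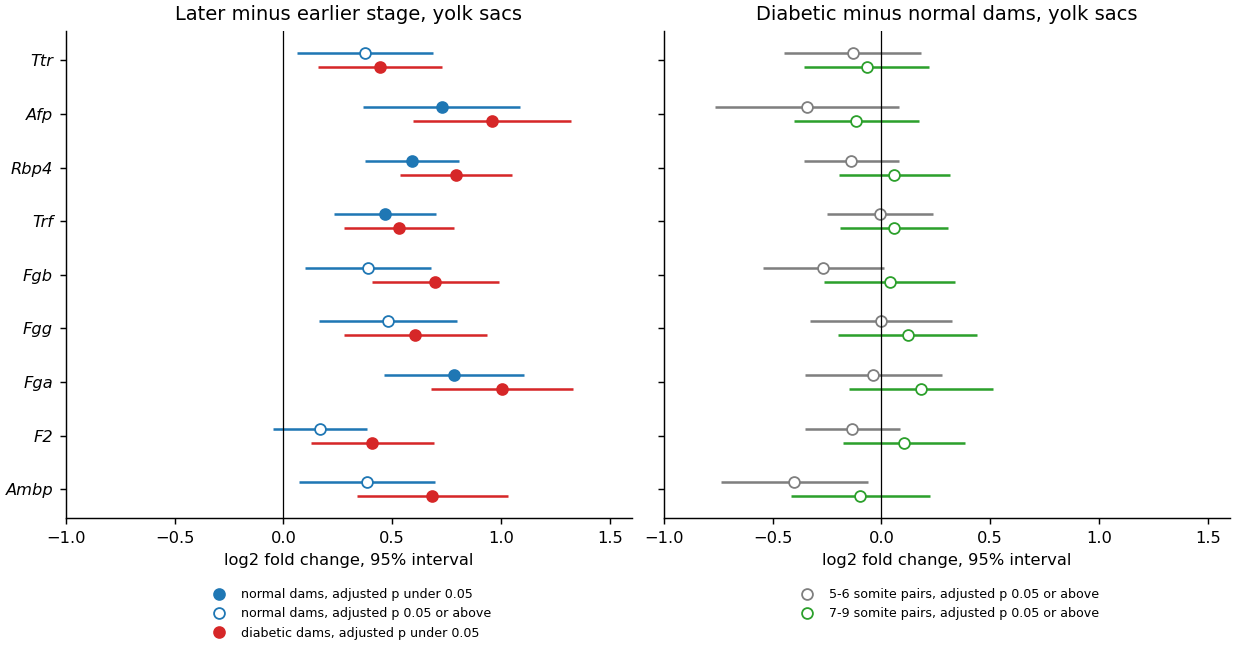
Log2 fold changes with 95% intervals from edgeR for 9 serum protein genes in yolk sacs, for the later against the earlier stage (left) and for diabetic against normal pregnancies (right), filled where the adjusted p is under 0.05. On the left 4 normal and 9 diabetic points are filled, all above 0, and on the right none is.

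In embryos of the earlier stage 0 of 5 genes passed (-0.14 to 0.18, no unadjusted p under 0.05), where 1.46% of all genes were called. On litter means the same 5 differences were -0.58 (Afp), -0.46 (Trf), -0.37 (Fgb), -0.35 (Ttr) and -0.27 (Rbp4), so those of Trf, Fgb, Ttr and Rbp4 turned from above to below 0. In those of the later stage 0 of 5 passed, where 9.09% were called, although the differences were larger: 0.84 ± 0.43 for Trf, 0.68 ± 0.44 for Afp, 0.52 ± 0.38 for Ttr, 0.50 ± 0.37 for Rbp4 and 0.31 ± 0.32 for Fgb. Again no unadjusted p was under 0.05. Without embryo D24M15G the difference was 0.51 for Trf and 0.29 for Afp, and with the duplicate in its place 0.59 and 0.36. The primitive erythroid markers had 1.17 to 1.63 in the same contrast and 0 of 3 passed. The change of the diabetes effect between stages passed for 0 of 5 genes in embryos, against 8.7% of all genes.

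Of 40 exact permutation tests of litter means (10 genes, 2 tissues, 2 stages, two-sided), 2 had p under 0.05, for Afp in embryos and Ambp in yolk sacs of the earlier stage (exact p = 0.0428 and 0.0491). Both were lower in diabetic litters, by 0.58 and 0.44 on the log2 scale, with 2 and 1 of 9 diabetic litters above the normal median. After adjustment over the 40 the lowest exact p was 0.900. In earlier yolk sacs Trf, Fga and Fgg were above 0 on litter means, at 0.03, 0.11 and 0.09.

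Of 8 ratio tests between the stages in yolk sacs, 4 passed. Ratios were compared after the levels had been seen, in 16 permutation tests of log2 ratios (100000 resamples, two-sided, adjusted over the 16). The log2 ratio of Afp to Ttr was -0.25 ± 0.41 in earlier and 0.13 ± 0.31 in later normal yolk sacs (SD; adjusted permutation p = 0.0254). In diabetic yolk sacs it was -0.51 ± 0.52 and 0.11 ± 0.21 (adjusted permutation p = 4.800e-04). The ratio of Fgb to Fga, 2 chains of the same protein, went the other way, from 2.48 ± 0.32 to 2.10 ± 0.29 in normal yolk sacs (adjusted permutation p = 0.00488). In diabetic yolk sacs it went from 2.26 ± 0.31 to 1.96 ± 0.39 and did not pass (adjusted permutation p = 0.0584). Fgb to Fgg, also 2 chains of that protein, had stage differences of -0.12 in normal and 0.12 in diabetic yolk sacs and did not pass (adjusted permutation p = 0.384 in both). Rbp4 to Ttr differed between the stages in diabetic (0.31, adjusted permutation p = 0.0254) and did not pass in normal yolk sacs (0.20, adjusted permutation p = 0.121). None of the 8 ratios compared between diabetic and normal yolk sacs passed, with an adjusted permutation p of 0.0812 or more.

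Across yolk sacs the genes varied together. Over the 66 yolk sacs the deviations from the group means of 36 pairs of genes had Pearson r of 0.353 (Rbp4 and Trf) to 0.900 (Rbp4 and Fgg), with a median of 0.617, as a description over libraries that share depth. Against the mean of the others, Ttr had r = 0.852, Fgb 0.847, Fga 0.8398, Rbp4 0.836, Fgg 0.836 and Afp 0.817, while Ambp had 0.662, Trf 0.605 and F2 0.585. Single yolk sacs stood out for many genes at once: N28M07H had the highest value of 7 of 9 genes among later normal yolk sacs, and N28M06A of 5 among earlier normal ones. D28M36B had the lowest value of 6 of 9 among earlier diabetic ones. Of 10268 other genes, those whose deviations were most like the mean of the 9 were S100g (r = 0.853), Mcoln2 (0.849), Timd2 (0.8395), Pla1a (0.833) and Spp2 (0.828), over the same 66 yolk sacs. S100g encodes a vitamin D-dependent calcium-binding protein of absorptive epithelia, and Spp2 is itself a secreted plasma protein.

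The receptors for these proteins differed in their levels in the 2 tissues, and not all were mainly in 1 of them. Stra6, the receptor through which cells take up retinol from Rbp4, had medians of 27.9 (normal) and 30.1 (diabetic) normalized counts in later embryos and of 0 and 0.844 in later yolk sacs, with log2 differences (yolk sac minus embryo) of -5.33 to -4.22 in the 4 groups. It entered these fits only through its embryo counts, so no call is drawn from them. Tfrc, the receptor for transferrin, was abundant in both, with medians of 632 and 562 in later embryos and 592 and 488 in later yolk sacs. Its difference passed in earlier normal concepti only (-0.44, adjusted p = 0.00146), and the change of this difference with diabetes at that stage did not pass (0.22, adjusted p = 0.747). Cubn, its partner Amn and Lrp2 were higher in the yolk sac in all 4 groups, by 2.32 (Lrp2) to 5.94 (Cubn). The immunoglobulin receptor Fcgrt had differences of 4.84 to 5.15 and entered the fits only through its yolk sac counts.

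Of the regulators of liver-type genes described here, Hnf4a, the nuclear receptor that drives many serum protein genes, had differences (yolk sac minus embryo) of 5.27 to 5.95 and entered the fits only through its yolk sac counts. Foxa3 was higher in yolk sacs by 2.91 to 3.35, Gata4 by 1.73 to 2.18 and Foxa2 by 0.92 to 1.37, all past the test in the 4 groups. Zbtb20, which represses Afp in liver, was lower there, with differences of -2.25 to -1.32. Foxa1 had -3.24 to -2.20 and entered only through its embryo counts. Hnf4a, also 1 of the visceral endoderm markers, rose with stage in normal (0.45, adjusted p = 0.00559) and diabetic yolk sacs (0.79, adjusted p = 8.540e-08). In normal yolk sacs the earlier and later mean normalized counts were 204 and 196 (Foxa2), 107 and 111 (Foxa3) and 138 and 172 (Gata4). In diabetic ones they were 220 and 204, 107 and 120, and 145 and 157 in the same order.

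Other plasma proteins were mostly missing at this age. Of a list of 39 further genes of plasma and related proteins, 38 were in the table and 12 were abundant enough to be tested in yolk sacs. Ahsg, Apoh, Hp, Agt and Vtn, all products of the later liver, had medians of 0 in normal yolk sacs of both stages. Apoe had medians of 4349.7 and 4998 in earlier and later normal yolk sacs, F10 of 95.6 and 107, Serpinc1 (antithrombin) of 94.6 and 99.9, Serpinf2 (antiplasmin) of 68.8 and 104, and Plg (plasminogen) of 48.4 and 53.4. Of the 12, Apoc2 (0.85, also 1 of the visceral endoderm markers) and Serpinf2 (0.60) rose with stage in normal yolk sacs. In diabetic yolk sacs 7 rose, among them Serpinf2 (0.73), Apoc2 (0.69), Proc (0.65) and F10 (0.52), while Serpinc1 (0.19) and Plg (0.17) did not pass. Of all genes tested, 4.82% were higher at the later stage in normal and 18% in diabetic yolk sacs. The medians of the log2 stage difference were 0.18 and 0.31 over the 12, against 0.47 and 0.68 over the 9 serum protein genes and -0.03 and 0.01 over all genes tested.

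Markers of the cell types in the yolk sac moved with stage as well. Of all genes tested, 7.84% changed and 4.82% were higher in normal yolk sacs, and 33.7% changed and 18% were higher in diabetic ones. Of the 10 visceral endoderm markers, 4 rose and 1 (Amn) fell in normal yolk sacs and 6 rose in diabetic ones, with Apoa1 at 0.62 and 0.84 and Apoa4 at 0.64 and 0.68. Their summed level had medians of 11568 and 12997 in earlier and later normal and of 11252 and 12938 in earlier and later diabetic yolk sacs. Of the 5 primitive erythroid markers, 3 rose in normal and 5 in diabetic yolk sacs, and their summed level went from a median of 8642 to 18127 and from 8426 to 18268. The sum of the 5 trophoblast markers reached 249 in earlier normal, 337 in earlier diabetic, 76.2 in later normal and 62.9 in later diabetic yolk sacs. That of the 3 decidua markers reached 108, 413, 76.3 and 796 in the same order. The part of these cells in the stage differences of the serum protein genes was not tested.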

How the data were processed

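RNA of NOD embryos and yolk sacs was sequenced with a 3′ kit carrying UMIs. The authors aligned reads to mm10 with STAR, collapsed UMIs and counted genes with HTSeq (versions not given in the sources used here), and the deposited values are raw UMI counts per gene. Members and gene lists were chosen with earlier results of these data known. Each comparison was fitted on its own libraries over all genes with edgeR 4.0.16 in R 4.3.3 (TMM, filterByExpr with a minimum count of 10, quasi-likelihood F test, Benjamini-Hochberg adjustment, threshold 0.05). DESeq2 1.42.0 supplied size factors and an alternative test, and limma 3.58.1 blocked tests. Log ratios used log2(UMI count + 1), and marker deviations and litter means used log2(normalized count + 1). The fits were tested on simulated data. Alternatives changed the scaling, the filter, the tool, the litters and the title number. The 4 duplicate libraries entered no comparison. Embryo and yolk sac of 1 conceptus share its label, so the conceptus pairs them. Some regulators and a motif are not reported here. Named genes were all 10 members, the listed genes and the 5 genes most like the members. Floors (3 counts) cover counting error only, while intervals of log2 differences come from the spread between concepti. The sex label of the yolk sac differed from that of its embryo in 2 concepti, and sex entered only an alternative fit of the diabetes comparisons, with somite number.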

Additional observations from a re-analysis of the deposited data

Results flagged for a closer look

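In CPM, the 10 serum protein genes together were 3.09-fold higher in the original library of embryo D24M15G than in its duplicate, which takes no part in any comparison. The duplicate was lower for 9 of the 10 genes, with Alb at 0 in both libraries. Of 8904 genes compared, 119 were over 2-fold lower in the duplicate and 3 over 2-fold higher. The library totals were close, 2535105 and 2626999 UMI counts. The part of tissue input or labelling in this difference was not tested.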

How the results depend on the processing

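The counts of serum protein genes called for stage, diabetes, tissue and their interactions stayed within 1.5 times the reported ones in the alternatives tried, except within single title numbers. With title number 24 only, the count for stage in yolk sacs was 0 in normal and 0 in diabetic pregnancies, and with 28 only it was 2 in normal ones. Those fits hold fewer libraries (4 and 3 normal, 3 and 7 diabetic for number 24). Also with number 24 only, 3 diabetes differences in earlier yolk sacs turned from negative to positive: Afp 0.11, Ambp 0.19 and Fgb 0.034. The cause was not tested. With the conceptus as a replicate block the tissue comparison again called 9 of 9 genes, in each of the 4 groups. Fga, Fgg, F2 and Ambp entered these fits only through their yolk sac counts, so no call is drawn from them. For the 5 genes testable in embryos the pairing changed no call, in a direction known beforehand. Without the block, 35.1 to 36.2% of all genes tested were higher in the yolk sac. The title number tests, the duplicate in place of embryo D24M15G and the ratios were chosen after seeing the data. Without 1 litter at a time the diabetes difference in earlier yolk sacs ran from -0.54 to -0.07 for Afp and from -0.52 to -0.28 for Ambp. Of 65 further values that missed the threshold, 29 changed sign in at least 1 setting, and none newly passed. Depth limits Alb, which did not pass the filter on low counts. With no filter the tissue comparison called 10 genes, Alb included, in later normal and in earlier diabetic concepti. In later normal concepti Alb had 7 UMI counts in 5 of 16 yolk sacs and 1 in embryos. In earlier diabetic ones it had 6 in 4 of 17 yolk sacs and 0 in embryos. No call is drawn from so few counts.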
